A study of Drosophila melanogaster with 6 samples.

Results

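Peaks that run across the edge of a single gene were taken from the deposited peaks of Klu (Klumpfuss), a WT1-like zinc-finger protein that regulates transcription in enteroblasts, the enterocyte precursors of the Drosophila midgut. Members were the distinct coherent peaks for which exactly 1 gene was listed at distance 0 and which began before that gene or ended after it. They numbered 214 of 1122 coherent peaks, or 19.1%, and lay at 214 distinct genes. By the strand of the gene, 98 crossed its start (the 5′ end) and 116 crossed its end (the 3′ end). No count was used to choose them. Edge positions were those in the deposited gene lists.

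Binding had been profiled by targeted DamID. In this method the protein under study carries the bacterial methylase Dam, which marks adenines of GATC sequences wherever the fusion rests on DNA, and the marked fragments are then amplified and sequenced. The series held 3 Klu-Dam libraries (esgts, UAS-Flp, UAS-Klu Dam) and 3 libraries with Dam alone (esgts, UAS-Flp, UAS-Dam control). Both groups thus carried esgts and UAS-Flp, and per the study's methods Flp removed a STOP cassette in Esg-positive stem and progenitor cells after a shift to 29 °C. Flies were reared at 18 °C, induction lasted 24 h, and each library came from DNA pooled over 30 to 40 midguts by the labels. Ages were not given in the sources used here. The Klu-Dam construct holds the full-length klu cDNA in 1 landing site, so the fusion adds Klu to that made by the cells themselves, and the DNA came from whole midguts and not from sorted cells.

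Read counts were given for the 3 Klu-Dam libraries and none for Dam alone. The height of a peak below is therefore Klu-Dam reads, not corrected for the background of the methylase. Per the study's methods, the pipeline that identified the peaks took log2 ratios of Klu-Dam over Dam-only. That enrichment could not be tested again here at any peak. Binding reads carry no expression, so the labelled cell type could not be checked against marker genes. The coherent peaks held 19521921, 18287201 and 18347327 reads in Klu-Dam replicates 1, 2 and 3. Edge peaks held 4487118, 4322676 and 4376663 of them, and the lowest count of any edge peak in any library was 81. Amplified reads are not independent molecules, so these counts do not give the counting error, which was not measured. Replicate 3 differed more from replicates 1 and 2 than these did from each other, at edge peaks and other coherent peaks alike. Across edge peaks, the SD of the log2 CPM ratio of replicate 3 was 0.62 against replicate 1 and 0.54 against replicate 2. Replicate 2 against replicate 1 gave 0.27. Across the other coherent peaks the SDs were 0.61, 0.52 and 0.27 in the same order. Per the study's methods, reproducible peaks were chosen by agreement between replicates 1 and 2. Its results describe the peaks near its 1667 genes as present in all 3 replicates. How far the choice of peaks sets the closeness of replicates 1 and 2 was not tested. CPM here means the count of a peak per 1000000 reads in all coherent peaks of its library.

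The edges of a gene hold different parts of its machinery. At the start lie the core promoter and the 5′ untranslated region, where the polymerase is loaded and where factors bound close by can act on initiation. At the end lie the 3′ untranslated region and the cleavage and polyadenylation signals. Fly genes are closely packed, so the sequence past one gene is often the promoter, the tail or the coding sequence of the next.

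The stretches where 6 of the highest edge peaks leave their gene are shown, to let the sequence be read beside the counts that follow. They are the first bases of the peak beyond the gene edge, up to 250 bases, as far as no annotated exon was met, on the Release 6 genome from RefSeq, 5′ to 3′ on the strand of the gene, with GATC sites in capitals. In order of mean count within each kind, 2 peaks on an arm whose sequence is not shown and 4 with an annotated exon within 50 bases of the listed edge were passed over. The first 3 lie upstream of a gene start and the other 3 downstream of a gene end.
CG3857, chrX:1940041-1940290, minus strand: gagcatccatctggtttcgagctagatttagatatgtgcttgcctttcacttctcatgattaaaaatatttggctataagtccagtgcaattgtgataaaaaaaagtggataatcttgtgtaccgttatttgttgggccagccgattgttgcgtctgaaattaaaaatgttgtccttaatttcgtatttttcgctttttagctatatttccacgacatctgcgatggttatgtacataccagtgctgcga
CG43658, chrX:17531455-17531704, minus strand: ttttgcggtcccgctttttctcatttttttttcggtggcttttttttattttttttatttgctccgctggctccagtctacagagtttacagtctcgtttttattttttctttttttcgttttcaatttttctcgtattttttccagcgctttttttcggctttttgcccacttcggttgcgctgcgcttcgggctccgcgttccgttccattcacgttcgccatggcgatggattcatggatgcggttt
CG12090, chr3L:1534035-1534284, minus strand: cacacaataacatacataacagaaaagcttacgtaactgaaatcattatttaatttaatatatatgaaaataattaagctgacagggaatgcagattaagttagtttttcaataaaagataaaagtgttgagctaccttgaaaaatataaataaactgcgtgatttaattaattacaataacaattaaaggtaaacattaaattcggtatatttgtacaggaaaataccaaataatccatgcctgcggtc
neo, chr3R:29825801-29826050, plus strand: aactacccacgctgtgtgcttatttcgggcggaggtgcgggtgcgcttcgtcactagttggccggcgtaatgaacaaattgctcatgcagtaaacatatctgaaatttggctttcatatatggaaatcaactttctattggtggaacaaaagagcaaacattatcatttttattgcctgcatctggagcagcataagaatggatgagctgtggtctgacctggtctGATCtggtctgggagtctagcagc
Oatp74D, chr3L:17511694-17511854, plus strand: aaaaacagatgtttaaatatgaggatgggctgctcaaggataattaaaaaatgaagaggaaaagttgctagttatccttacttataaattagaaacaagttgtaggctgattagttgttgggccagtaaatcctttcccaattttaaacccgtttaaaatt
CG10495, chr2L:19064727-19064831, plus strand: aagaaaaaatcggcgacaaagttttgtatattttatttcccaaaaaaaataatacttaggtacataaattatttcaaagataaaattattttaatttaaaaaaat
Only the stretch at neo held a GATC site, so in the other 5 the nearest methylation site outside the gene lay beyond the printed bases. GC content was 37.2% at CG3857, 42.4% at CG43658 and 26.4% at CG12090. It was 45.6% at neo, 31.7% at Oatp74D and 17.1% at CG10495. The hexamer TATAAA, the letters of a TATA box, was found on either strand in the stretches at CG12090 and Oatp74D.

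The peaks straddled the gene edges almost evenly. By the rule each peak had to cross an edge, which bears on this split, so the values describe the members only. Whether binding centres on gene edges was not tested. A median of 945.5 bp lay outside the gene (lowest 2, highest 3920) and 888 bp inside it (lowest 2, highest 5732), and the midpoint fell inside the gene for 109 of 214 peaks. Among start-crossing peaks the medians were 968 bp outside and 909 bp inside, and among end-crossing peaks 915.5 bp outside and 833.5 bp inside. The distances spread over kilobases on either side. Of the start-crossing peaks, 49.0% still covered the position 1 kb upstream of the gene start and 14.3% the position 2 kb upstream. Of the end-crossing peaks, 46.6% covered the position 1 kb past the gene end and 10.3% the position 2 kb past it.

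**Figure D1:**
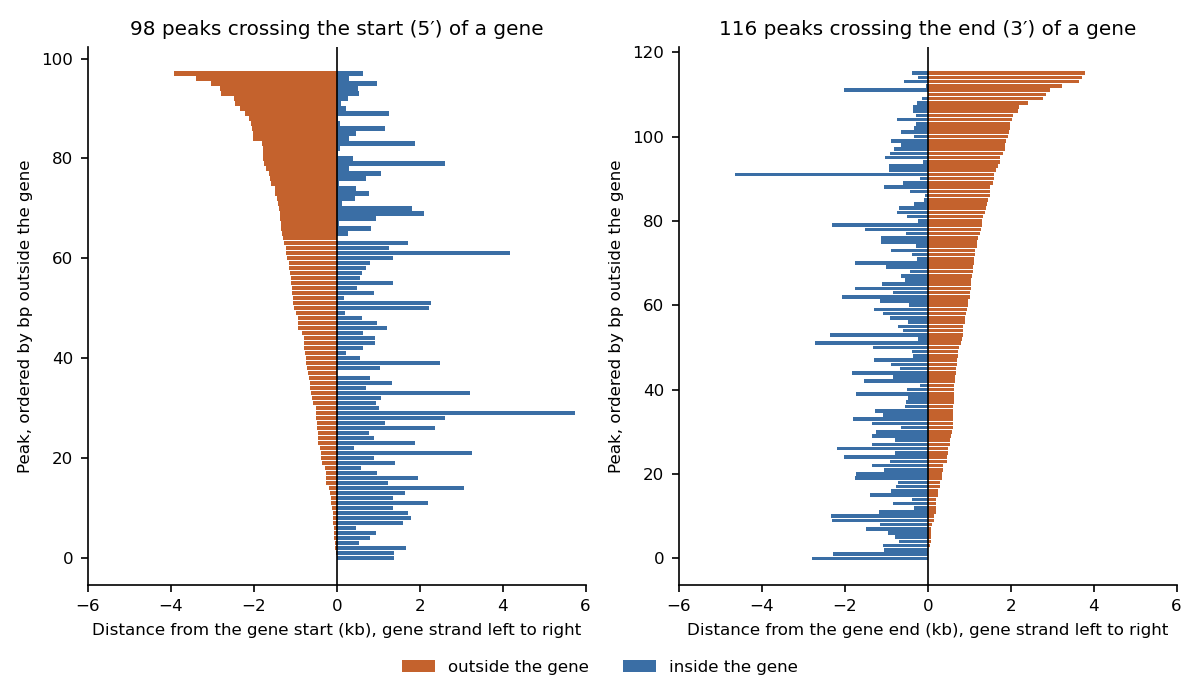
Each bar is 1 edge peak, drawn as distance in kb from the gene edge it crosses, with the gene read left to right, for 98 start-crossing (left panel) and 116 end-crossing (right panel) peaks. Orange is the part outside the gene and blue the part inside it. In each panel peaks run from the fewest bp outside at the bottom to the most at the top. These are 2 and 3920 bp for start-crossing peaks, and 4 and 3792 bp for end-crossing peaks.

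The longest reach past a gene belonged to the peak at CG12090, the Iml1 gene of the reference annotation, which codes for a subunit of the GATOR1 complex that restrains TORC1. It extended 3920 bp upstream of the gene start. The deepest reach into a gene was 5732 bp at Ncoa6, from its start. Ncoa6 was named after its value was seen. Other peaks barely met the rule. The smallest overhang was 2 bp, at CG31121, followed by 4 bp at CG10184, 8 bp at neb, 10 bp at CSN3 and 11 bp at Ilk, while the peaks that stopped just short of an edge did so by 6 bp at lid, 14 bp at mask, 18 bp at CG10516, 22 bp at EndoB and 29 bp at CG3702. These peaks averaged 36.1 (Ilk) to 294 CPM (CSN3) just past the edge and 33.2 (CG10516) to 850 CPM (lid) just short of it, so the 2 sides of the rule overlapped in height. At least 100 bp on either side of the edge was found for 185 of the 214 peaks.

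Peak borders are themselves set by the method. All 1122 coherent peaks began and ended at a GATC site, so the overhang past a gene depends on where the next site lies. The edge peaks had 2.63 internal GATC sites per kb outside the gene and 2.83 inside it. In 44 of 214 peaks the part outside the gene had no internal site, and in 37 the part inside had none, so a methylation site on that side was only the border of the peak.

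Edge peaks were wider than the rest of the set. The width of a peak bears on whether it runs past a gene edge, so this difference describes the rule as much as the peaks. Their median width was 1905.5 bp (530 to 6242), against 1639.5 bp for the 908 other coherent peaks and 1565 bp for the 541 peaks wholly inside a single gene. The median number of GATC fragments was 6 for each of these kinds. Median GC content was 44.6% in edge peaks and 45.5% in the other peaks. Within edge peaks the gene side was richer in GC, with medians of 46.3% inside and 42.5% outside, and GC content was higher inside the gene in 134 of 214 peaks. Regions are not replicates, and no test was made of these values.

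The genes crossed were short. Their median length was 2732 bp, against 15513 bp for genes that held a whole peak. The length of the gene bears on whether a peak can lie within it, and this difference describes the rule as much as the genes. Genes crossed at the start had a median length of 3638.5 bp and genes crossed at the end 2428.5 bp. The peak covered a median of 23.7% of its gene and over 50% of it in 61 cases. That 0 edge peaks held their gene whole describes the listing as much as the members. Of 1289 entries at distance 0 in the coherent set, 1 had its gene wholly within the peak. Of the 214 genes, 207 were protein coding and 7 were non-coding RNAs.

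The base composition by annotation differed between the sides of the edge. Outside the gene, 48.7% of the bases of edge peaks were intergenic, 22.0% lay in coding exons of other genes or of other gene models, 11.3% in introns, 9.52% in 3′ untranslated regions and 6.82% in 5′ untranslated regions. In start-crossing peaks the part inside the gene was 38.2% intron, 35.7% coding exon and 24.2% 5′ untranslated region. In end-crossing peaks it was 48.7% coding exon, 34.8% 3′ untranslated region and 13.8% intron. Over the 6 chromosome arms, introns made up 42.7% of all bases, coding exons 17.1%, 3′ untranslated regions 4.94% and 5′ untranslated regions 3.06%. The part inside the gene necessarily includes the first or last exon, and no test was made.

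**Figure D2:**
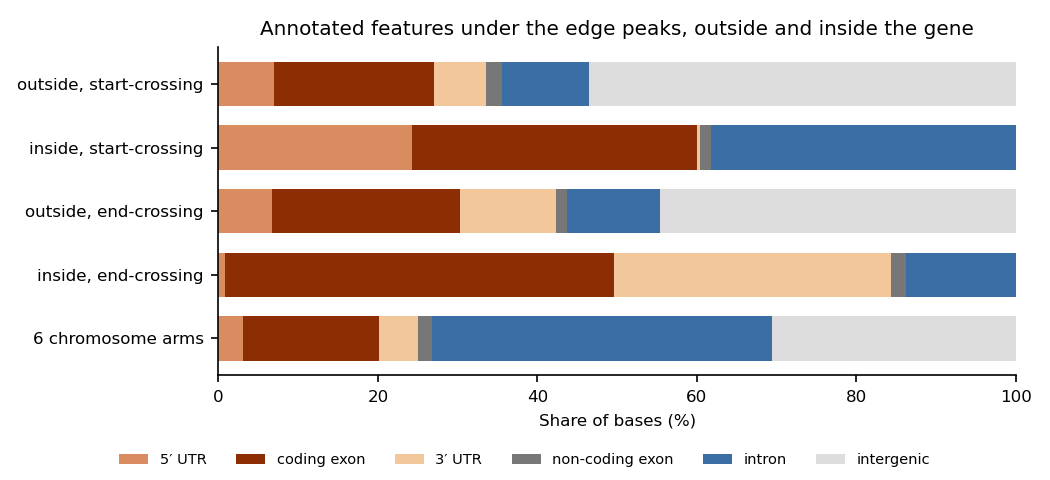
Bars give the share of bases (%) in each annotated feature for the parts of edge peaks outside and inside the gene, by the gene edge crossed, with the 6 chromosome arms in the bottom bar. Intergenic bases make up 53.6% outside start-crossing and 44.7% outside end-crossing peaks, and 3′ untranslated regions make up 34.8% of the inside part of end-crossing peaks.

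A single gene in the deposited list did not mean a single gene under the peak. In the Ensembl annotation of the same genome, 113 of the 214 peaks overlapped 1 gene only, and 88 overlapped another protein-coding gene. The outer border of the peak lay within another coding gene in 72 cases, and 37 peaks held some other annotated gene whole. Across the coherent table, 1 of 1289 entries at distance 0 had its gene wholly within the peak. The start of another coding gene lay within 58 edge peaks (23 start-crossing and 35 end-crossing), and the end of another coding gene within 55 (18 start-crossing and 37 end-crossing). Beside each gene named below, any other gene under the peak is therefore given.

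The gene edges themselves also differ between annotations. The crossed edge had the same position in the reference for 183 of 214 peaks. By the reference extents 197 peaks still ran past their gene, while 17 (10 start-crossing and 7 end-crossing) lay wholly inside it. The gene CG43658 is one of these, so the bases printed for it fall within the longer reference gene, and Hex-A is another.

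The neighbours were described for the 207 coding genes. For 60 of 95 genes crossed at the start (63.2%), the next coding gene upstream lay on the opposite strand, a head-to-head arrangement, which held for 53.6% of all 13937 coding genes with an upstream neighbour. A head-to-head neighbour within 1 kb was found for 33 of the 95 (34.7%) and for 33.0% of all coding genes. For genes crossed at the end, the next coding gene downstream lay on the opposite strand in 42 of 112 (37.5%), against 42.5% of all coding genes, and was both opposite and within 1 kb in 17 (15.2%), against 22.5%. The median distance to the next coding gene was 825 bp upstream of genes crossed at the start (630 bp over all genes) and 1342.5 bp downstream of genes crossed at the end (1038.5 bp over all genes). Peaks that touched several listed genes were left out by the rule, which bears on these distances, so the values describe the members only.

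Edge peaks were found on every arm. X held 52 of them, where its part of all GATC sites would give 38.6, and 2L held 26, where it would give 35.8. Arms 2R, with 47 (42.2 by GATC sites), 3L, with 35 (45.0), 3R, with 52 (50.3), and the fourth chromosome, with 2 (2.06), lay between these as ratios to the number by GATC sites. Of 220 coherent peaks, 23.6% were edge peaks for X, and 26 of 173 were for 2L.

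Short sequences of known regulatory sites were counted on both strands in windows of 300 bases at the crossed edge, 250 outside and 50 inside the gene, for coding genes whose edge is unchanged in the reference. At gene starts (78 members against all 13945 coding genes) TATAAA, the letters of a TATA box, was found in 47.4% against 45.8%, TCAGT, the core of the fly initiator, in 52.6% against 51.5%, TATCGATA, the site of the factor DREF, in 10.3% against 9.36%, and CACGTG, an E-box, in 3.85% against 4.20%. The sequence GCGTGGGNG, bound by the related Egr and WT1 proteins of vertebrates, was found in 0 of 78 windows, against 0.638% of all gene starts. It stands in for no Klu motif. The study itself scanned its peaks for published Klu binding motifs and reported them at part of its genes. That scan was not repeated here. At gene ends (100 members) the shares were 46.0% against 47.9% for TATAAA, 42.0% against 40.4% for TCAGT, 3.00% against 2.03% for TATCGATA, 3.00% against 2.77% for CACGTG and 0 of 100 against 0.495% for GCGTGGGNG. Over whole peaks GCGTGGGNG lay in 19 of 214 edge peaks (8.88%) and in 8.37% of the other coherent peaks. The shares of whole peaks were 83.2% against 71.5% for TATAAA, 95.8% against 90.1% for TCAGT, 10.7% against 7.05% for TATCGATA and 29.0% against 21.3% for CACGTG, and edge peaks were also the wider (median 1905.5 bp against 1639.5 bp). GATC was found in 57.7% of the start windows of members, against 45.2% of all, and in 62.0% of the end windows, against 49.5%, and peaks are built from GATC fragments. The short motifs overlap one another in no fixed way, and matches are descriptions only.

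Edge peaks held a little more of the reads than of the covered sequence. Their share of the reads in coherent peaks was 23.0%, 23.6% and 23.9% in Klu-Dam replicates 1, 2 and 3, or 23.5% ± 0.453 (SD, n = 3), in 21.8% of the bases covered. The highest edge peak alone carried 12.6% ± 4.70 (SD, n = 3) of the reads of edge peaks, and the 10 highest carried 51.5% ± 2.86. The edge peaks other than neo held 20.5% ± 1.47 (SD, n = 3) of the reads in coherent peaks, with the reads of neo kept in the total. This mean was below the 21.8% of bases covered by edge peaks. Edge peaks made up 3 of the 10 highest coherent peaks, 10 of the 50 highest and 26 of the 100 highest. Their share of all coherent peaks was 19.1%. The mean CPM of a peak over the 3 libraries had a median of 222 among edge peaks and 143 among the others.

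To compare heights of peaks of different width, reads were divided by the width in kb and the median log2 value of each kind was taken within each library. Edge peaks had medians of 1993, 2148 and 1968 reads per kb in Klu-Dam replicates 1, 2 and 3, against 1634, 1789 and 1757 for the other coherent peaks. They were higher in 3 of 3 libraries, by 0.24 ± 0.07 on the log2 scale (SD, n = 3), or 1.18-fold. With 3 libraries the exact two-sided sign-flip permutation test cannot go below 0.25 and gave p = 0.25, so the test cannot pass 0.05. Against peaks wholly inside a single gene, with medians of 1480, 1672 and 1643 reads per kb, the difference was 0.35 ± 0.09 on the log2 scale (higher in 3 of 3 libraries, exact permutation p = 0.25). Counted per GATC fragment in place of per kb, the 2 differences were 0.49 and 0.67. The difference exceeded the spread between libraries in both comparisons, while the quartiles of the kinds of peaks overlapped widely.

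**Figure D3:**
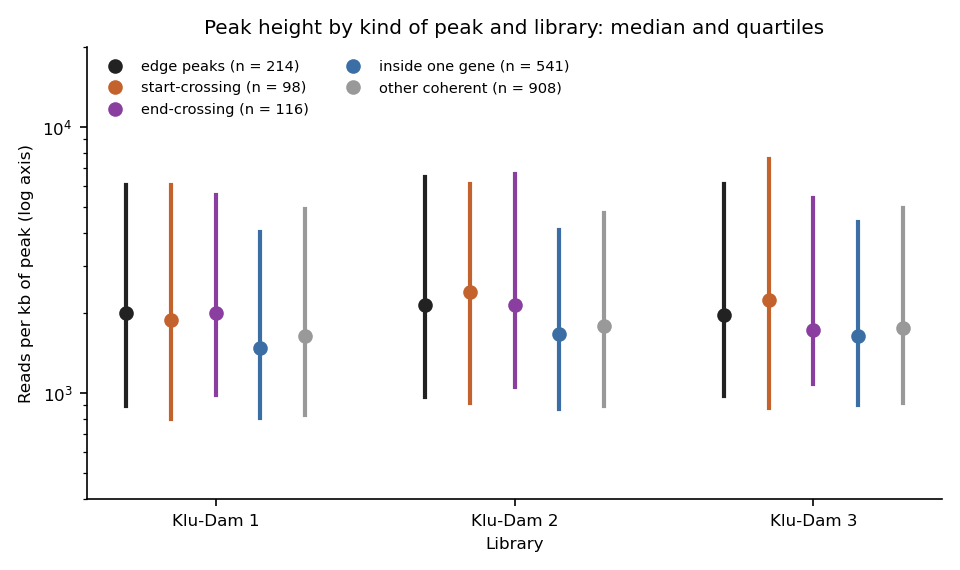
Points are medians and lines run between the quartiles of reads per kb (log axis) over the peaks of each kind, in each of the 3 Klu-Dam libraries. Edge peaks (black) have medians of 1993, 2148 and 1968 reads per kb, and the peaks inside a single gene (blue) lie lower in each library, with quartiles that overlap.

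The direction depended on the width of the peaks. Edge peaks were higher than the other coherent peaks among peaks of 1 to 2 kb, with medians of 1656, 1870 and 1648 reads per kb (102 edge peaks), against 1279, 1418 and 1482. They were lower among peaks of 2 to 3 kb, with 2251, 2294 and 2140 reads per kb (69 edge peaks), against 2803, 3067 and 2951 for the other coherent peaks, a log2 difference of -0.40 ± 0.08 (SD, n = 3). They were also lower below 1 kb (12 edge peaks), with 1036, 1274 and 1101, against 1227, 1342 and 1517. From 3 kb up (31 edge peaks) the order changed between libraries, with 3032, 3248 and 3672, against 3421, 3120 and 2786.

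Against peaks wholly inside a gene the width classes gave log2 differences of -0.34 ± 0.16 below 1 kb, 0.28 ± 0.16 at 1 to 2 kb, -0.12 ± 0.05 at 2 to 3 kb and 0.98 ± 0.28 from 3 kb up (SD, n = 3 each). The higher median of edge peaks over all widths therefore did not hold within each class, in either comparison. The width classes were added after the values were seen.

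The median heights of start-crossing and end-crossing peaks differed by less than the spread between libraries. Start-crossing peaks had medians of 1881, 2394 and 2240 reads per kb in Klu-Dam replicates 1, 2 and 3, against 2008, 2137 and 1728 for end-crossing peaks. The difference was 0.15 ± 0.23 on the log2 scale (SD, n = 3), with start-crossing peaks higher in 2 of 3 libraries (exact permutation p = 0.5). Per GATC fragment it turned to -0.066, and as a mean of log2 values to -0.050. With at least 100 bp on either side of the gene edge it was 0.40 ± 0.21 (SD, n = 3, exact permutation p = 0.25, the smallest the test allows). In all, 3 differences between kinds of peaks were tested, with Benjamini-Hochberg adjusted exact p of 0.375, 0.375 and 0.5 in the order given. Start-crossing peaks held 9.33%, 10.4% and 10.3% of the reads in coherent peaks in the 3 libraries, with 10.3% of the covered bases. End-crossing peaks held 13.7%, 13.3% and 13.5% of the reads, with 11.5% of the covered bases, and included neo, the highest edge peak.

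The members are described next by the edge they cross. At gene starts the highest edge peak lay on X from 1939098 to 1941400, over the start of CG3857 (FBgn0023520). It held 265377, 301785 and 342619 reads in Klu-Dam replicates 1, 2 and 3, or 16257 ± 2549 CPM (SD, n = 3), place 10 among all coherent peaks. The peak spanned 11 GATC fragments, with 1360 bp upstream of the gene, and in the reference it also overlapped CG3587, whose edge lies 266 bp away on the opposite strand. Its counts can therefore belong to either gene.

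The peak at CG43658 (FBgn0263706), on X from 17530989 to 17533475, held 281418, 292497 and 184489 reads, lowest in replicate 3. It averaged 13488 ± 3076 CPM (SD, n = 3). Of its length, 2021 bp lay upstream of the listed start but still inside the reference gene, which has 5 annotated starts, 1 of them in the peak. The peak at Mrtf (FBgn0052296), a cofactor of serum response factor that links actin to transcription, lay on 3L from 2763215 to 2766867 and mostly within the gene (3266 bp). It held 122145, 122493 and 137822 reads, so that its libraries differed little (CV 9.33%).

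The peak at CG12090 (Iml1; FBgn0035227) lay on 3L from 1533403 to 1537954 and held 83921, 86956 and 168273 reads. Replicate 3 was about 2-fold above the other libraries (log2 ratio 1.02 to their mean in CPM). CG12091 and pns of the reference also lay under this peak. The peak at nerfin-2 (FBgn0041105), a zinc-finger gene of the nervous fingers family, on 3R from 10069364 to 10073725, went the other way, with 101463, 83675 and 47524 reads. No other annotated gene lay under it, and 1753 bp of it was upstream of the start.

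The other 3 of the 8 highest start-crossing peaks ranged between 2941 and 3308 CPM. The peak at pigeon (FBgn0010309) on 2L held 48841, 59672 and 76279 reads, with 177 bp upstream of the gene and 3064 bp inside it. The peak at CG4829 (FBgn0030796) on X held 56967, 70629 and 43679 reads, with 1340 bp upstream. That at CG6321 (FBgn0036117) on 3L was the steadiest of the 8, with 53865, 55609 and 55466 reads (CV 5.36%), and Blos2, a gene of the BLOC-1 complex on the opposite strand, and CG32069 lay under it too.

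At gene ends the highest edge peak was that at neo (neyo; FBgn0039704), which codes for a zona pellucida domain protein of the apical matrix of epidermal cells. It lay on 3R from 29824714 to 29826410, with 1087 bp in the gene and 610 bp past its end, and no other annotated gene under it. It held 756294, 581305 and 330982 reads, or 29523 ± 10535 CPM (SD, n = 3), place 2 among all coherent peaks. Replicate 3 was the lowest, at 18040 CPM, against 38741 and 31788 CPM in replicates 1 and 2. At 327750 reads per kb it was also the highest edge peak per length.

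The peak at CG31875 (FBgn0051875), on 2L from 9993698 to 9996367, held 405196, 346128 and 232613 reads, again lowest in replicate 3. It reached 1863 bp past the listed gene, and bib (big brain), an aquaporin-family membrane protein known from neurogenesis, lay under the peak too, on the opposite strand and 22 bp from the end of CG31875. The peak at CG17065 (FBgn0031099), on X from 20250983 to 20254934, had only 243 bp in the listed gene and 3709 bp past it, across 19 GATC fragments. It held 136257, 145578 and 404268 reads, highest in replicate 3, and CG17068 and Rab10, a small GTPase of membrane traffic, lay under it.

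The peak at Oatp74D (FBgn0036732), the importer of the steroid hormone ecdysone, lay on 3L from 17510954 to 17513724. Its reads were 132007, 147258 and 135254, a CV of 8.73%. The neighbour U4-U6-60K, a spliceosome gene on the opposite strand 161 bp away, lay under the 2031 bp past the gene. The peak at pnut (peanut; FBgn0013726), a septin, on 2R from 8238532 to 8241413, held 140008, 109548 and 96183 reads with no other annotated gene under it.

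The peak at Pabp2 (FBgn0005648), the nuclear poly(A)-binding protein, on 2R from 8132066 to 8135671, held 111816, 96387 and 91478 reads (CV 7.02%), and Obp44a, an odorant-binding protein gene, lay under its outer part. The peak at CG10495 (Dus4 in the reference; FBgn0032750) on 2L held 68940, 63524 and 98288 reads, and CG10702 and CG17343 lay under it. The peak at Hex-A (hexokinase A; FBgn0001186), the first enzyme of glycolysis, on X from 9587108 to 9589353, held 21885, 31765 and 184118 reads. Its replicates differed more than those of any other coherent peak (CV 116%), and without replicate 3 it would stand at 1121 and 1737 CPM, in place of a mean of 4298 CPM. By the reference the Hex-A gene extends past the peak, so this peak crosses the listed end only.

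**Figure D4:**
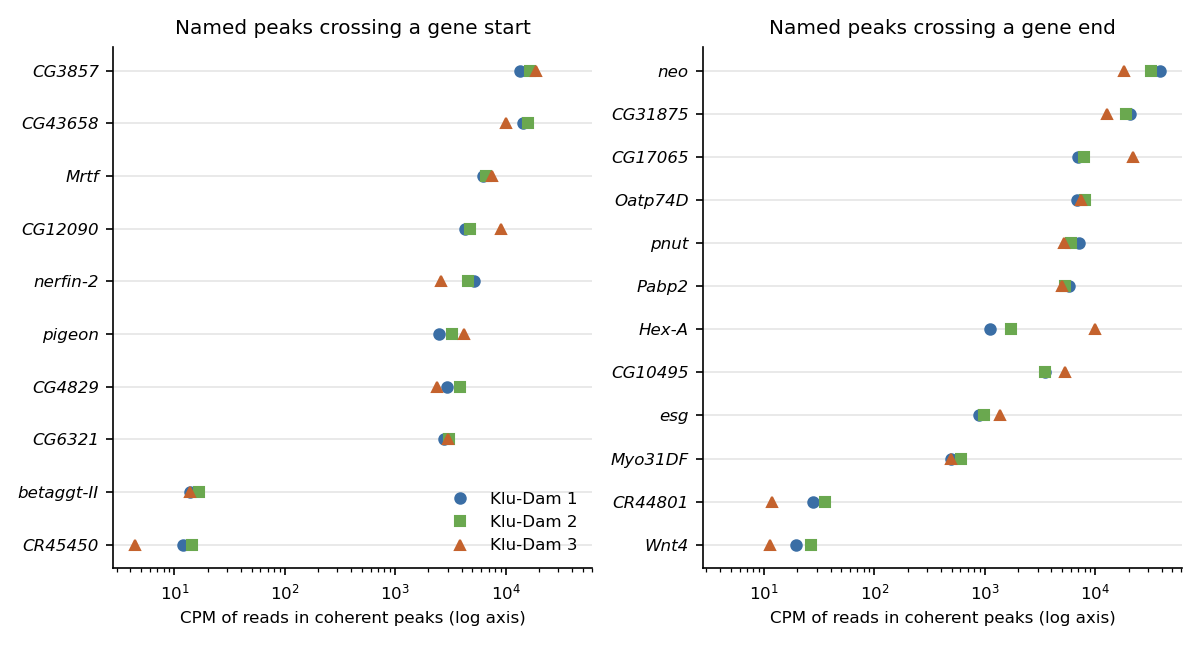
Points are CPM (log axis) of each named edge peak in the 3 Klu-Dam libraries, for peaks that cross a gene start (left) and a gene end (right). The 3 libraries lie close together at CG6321, Oatp74D and Pabp2, while replicate 3 (triangles) lies above the others at Hex-A, CG17065 and CG12090 and below them at neo.

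The lowest members were far below these. Among start-crossing peaks the lowest were at betaggt-II (RabGGTb in the reference; FBgn0028970), a subunit of the enzyme that adds lipid anchors to Rab proteins, with 269, 306 and 255 reads, and at the non-coding RNA CR45450 (FBgn0267006), with 234, 262 and 81 reads. Among end-crossing peaks they were at Wnt4 (FBgn0010453), a secreted Wnt ligand, with 378, 486 and 209 reads, and at the non-coding RNA CR44801 (FBgn0266036), with 541, 656 and 218 reads. The range between neo and CR45450 was thus 29523 to 10.2 CPM. At Wnt4, CR45450 and CR44801 replicate 3 was the lowest library by over 2-fold against the mean of the others.

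Genes of known function in the gut lineage were looked up in 5 lists. A list of 14 genes for stem and progenitor cells also held Myo31DF, a gene of enterocytes. Of its genes, 4 were listed near a coherent peak and 2 of these, esg and Myo31DF, were crossed by an edge peak. Edge peaks crossed 0 of 25 Notch pathway genes (5 listed near a coherent peak), 0 of 15 genes of enteroendocrine fate (2 listed), 0 of 21 cell cycle genes (4 listed) and 0 of 35 genes of growth signalling (10 listed). Of the 25 genes of these lists near any coherent peak, 2 were thus crossed by an edge peak, beside 214 of all 1667 genes listed near a coherent peak (12.8%). One further gene was listed near an edge peak without being crossed by it. E(spl)mdelta-HLH, a Notch target of the Enhancer of split complex, was listed 1642 bp from the edge peak at the start of CG43116 on 3R, which held 5692, 5063 and 4483 reads in replicates 1, 2 and 3. By the reference the genes lie 624 bp apart on opposite strands, and 507 bp of the peak lay outside CG43116 on that side. The listed distance is thus larger than the reference positions give, and the reason was not tested. CG43116 was named after its value was seen.

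The gene esg (escargot; FBgn0001981) codes for a Snail-family zinc-finger repressor that keeps midgut stem and progenitor cells from differentiating. Its edge peak lay on 2L from 15334876 to 15336749, with 1263 bp over the gene's end and 611 bp past it, in a gene of 1 annotated start. It held 17365, 18044 and 25212 reads in replicates 1, 2 and 3, or 1083 ± 256 CPM (SD, n = 3), place 166 of the 1122 coherent peaks. The next coding gene lay 24782 bp away, and no other annotated gene lay under the peak. The peak was highest in replicate 3.

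Myo31DF (FBgn0086347) codes for an unconventional myosin of enterocytes that also sets left-right asymmetry. Its edge peak lay on 2L from 10491208 to 10493150, across the end of the gene, with 606 bp past it. It held 9658, 11112 and 8973 reads, or 530 ± 66.9 CPM (SD, n = 3), place 275. The libraries differed little here (CV 12.6%). CG13144, 359 bp away on the same strand, also lay under the peak.

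The replicates were then compared peak by peak. The median coefficient of variation over the 3 libraries was 16.5% for edge peaks and 16.7% for the other coherent peaks. The lower and upper quartiles were 10.8% and 24.4% for edge peaks, and 11.3% and 25.2% for the others. The coefficient was under 10% for 47 of the 214 edge peaks. It was over 50% for 7 of them, beside 36 of the 908 other coherent peaks. Without replicate 3 the median for edge peaks was 9.79%. Replicates 1 and 2 differed by over 1.5-fold at 11 of the 214 edge peaks, while replicate 3 differed by over 1.5-fold from their mean at 52. The 1.5-fold counts were not taken for the other coherent peaks. By the study's methods, reproducible peaks were chosen by agreement between replicates 1 and 2, while its results describe peaks present in all 3. A choice by replicates 1 and 2 bears on these values and on the CV without replicate 3. Which rule gave the coherent set is not stated. The values therefore do not show that replicate 3 was an outlying library.

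**Figure D5:**
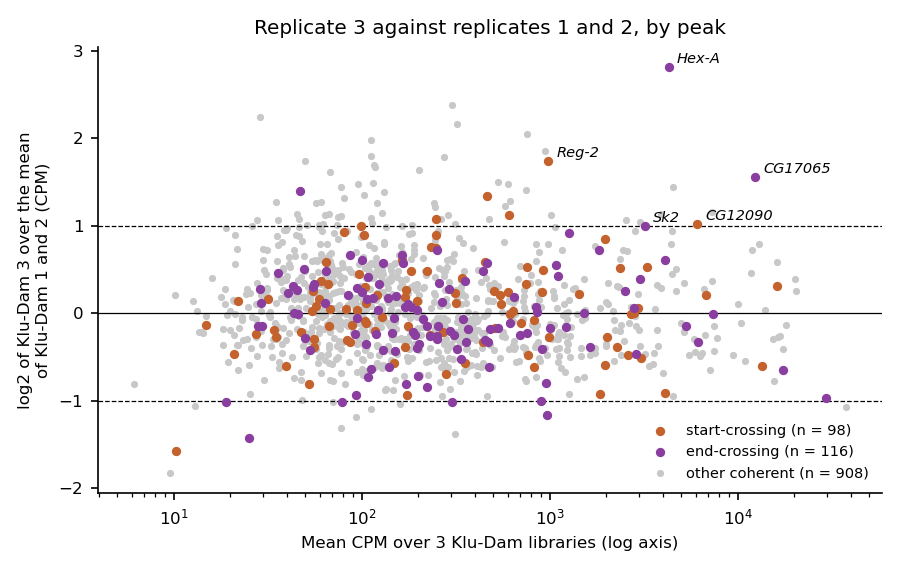
Each point is 1 coherent peak, with the mean CPM (log axis) on the horizontal axis and the log2 ratio of Klu-Dam replicate 3 over the mean of replicates 1 and 2 on the vertical axis, for start-crossing (orange), end-crossing (purple) and other peaks (grey). Dashed lines mark 2-fold, and 9 edge peaks lie above and 6 below them, with Hex-A highest at 2.81.

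Replicate 3 was over 2-fold above the mean of the other libraries at 9 edge peaks (4.21%), against 57 of 908 other coherent peaks, and over 2-fold below it at 6 (2.80%), against 0.991% of the others. The 9 included Hex-A (log2 ratio 2.81), CG17065 (1.56) and CG12090 (1.02) of those named above, and Reg-2 (1.74), which was named after its values were seen. The 6 included CR45450, CR44801 and Wnt4. The order of the highest members followed the library. In replicates 1 and 2 neo was first and CG31875 second, while in replicate 3 CG17065 was first with 404268 reads and CG3857 second. Of the 10 highest edge peaks in each library, 7 were shared by all 3, and 13 peaks appeared in at least 1 of the lists.

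In the semicoherent set, 210 of the 214 edge peaks had a counterpart that also crossed the edge of a single gene, and 178 had the same borders within 2 bp. Another 3 counterparts touched several genes and 1 touched none. By the same rule the semicoherent set of 1250 peaks held 247 edge peaks, of which 48.6% crossed the gene start, against 45.8% in the coherent set (98 of 214, Wilson 95% interval 39.3% to 52.5%).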

How the data were processed

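Methylated DNA from midguts was profiled in 3 Klu-Dam and 3 Dam-only libraries, whose replicate sets were isolated on different dates per the labels. Per the study's methods, single-end reads were aligned with bowtie2 to the UCSC dm6 build within damidseq_pipeline. The pipeline also took log2 ratios of Klu-Dam over Dam-only, and peaks were called per replicate. They were made reproducible with IDR between replicates 1 and 2, and genes were attached with a script of the authors. The study's results describe the peaks near its 1667 genes as present in all 3 replicates. The submitters' processing notes also name HOMER. How reads were counted per peak, and what separates the coherent from the semicoherent set, is not given in the sources used here. The authors deposited whole-number read counts per peak, with no scaling for depth, peak width or Dam-only signal, and every count column was used (0 left out).

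Repeated entries (2 of 1900) were dropped. Strand and features came from Ensembl release 115 on the same genome (Release 6), with 213 of 214 genes matched by identifier and 1, esg, by symbol. The deposited edges decided membership. At 2 further peaks the gene was listed with more than 1 extent and only one of them was crossed, and these were not counted. Positions are 1-based. Counts were given as CPM of the reads in coherent peaks or per kb of peak. Each library gave 1 difference between kinds of peaks, tested by an exact two-sided sign-flip permutation over 3 libraries. These p-values measure only the spread between libraries, which may be technical. Amplified reads are not independent molecules, so counts at this depth say nothing of biological error. Named genes were the 8 highest and 2 lowest peaks by mean CPM at each edge and those in 5 gene lists. The members and lists were chosen with earlier results of these data known. Work was done in Python 3.11.15 (pandas 2.3.3, scipy 1.17.1, matplotlib 3.10.9, numpy 2.4.6).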

Additional observations from a re-analysis of the deposited data

How the results depend on the processing

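Edge peaks stayed higher per kb than the other coherent peaks, and than peaks inside a single gene, in direction under 8 other settings of height, membership, peak set and libraries for either comparison. Within width classes, added after seeing the data, they did not. Against the other coherent peaks the log2 difference was -0.29 below 1 kb, 0.31 at 1 to 2 kb, -0.40 at 2 to 3 kb and 0.09 from 3 kb up, and against peaks inside a gene it reversed to -0.34 below 1 kb and -0.12 at 2 to 3 kb. Leaving out 1 Klu-Dam replicate gave log2 differences of 0.21 to 0.28 against the other coherent peaks, and 0.31 to 0.40 against peaks inside a gene. Start-crossing minus end-crossing peaks gave 0.03 to 0.27 with 1 replicate left out, but reversed to -0.066 per GATC fragment, to -0.050 as a mean of log2 values and to -0.048 in the semicoherent set, and was 0.40 ± 0.21 (SD, n = 3) with at least 100 bp on either side of the gene edge. The cause of these changes was not tested. Among the 8 other settings, the largest shift of the edge difference against other peaks was to 0.49 per GATC fragment. The width classes below 1 kb and of 2 to 3 kb moved it further, to -0.29 and -0.40. The number of edge peaks was 185 with at least 100 bp on either side of the gene edge, 194 with the gene edges of the reference, 247 in the semicoherent set and 113 where only 1 reference gene may be overlapped. The share of reads held by edge peaks was 22.5% with at least 100 bp on either side, 26.9% in the semicoherent set, and 12.9% when set against the library totals of the study, which count reads outside peaks as well. With 1 replicate left out it ran between 23.3% and 23.7%. It was 20.5% without the highest edge peak and 20.9% without the edge peaks inside the reference gene, both added after seeing the data. In both cases the reads of the peaks left out stayed in the total. The median CV of edge peaks ran between 9.79% and 17.9% with 1 replicate left out, lowest without replicate 3. An SD over 2 libraries is usually the lower, so these are not fully comparable with 3. No paired analysis was possible because the tables used hold no Dam-only column to pair with. With 3 libraries no difference could pass the test, so the p-values say nothing of stability.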

Other observations

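The semicoherent set held 25 edge peaks with no coherent counterpart, 14 at gene starts and 11 at gene ends. The highest lay on 2R from 22804364 to 22806769 across the start of CycB, the mitotic Cyclin B, with 723216, 662327 and 570204 reads in Klu-Dam replicates 1, 2 and 3, place 2 of the 1250 semicoherent peaks. It reached 466 bp upstream of the gene and 1940 bp into it, and its libraries differed little (CV 10.1%). The next were at CG13604, with 67352, 65578 and 119072 reads, and at Kat60, a subunit of the microtubule-severing enzyme katanin, with 42077, 43183 and 160239 reads. At Prm (paramyosin, of the muscle thick filament), replicate 3 was again the highest, with 68827 reads against 29204 and 25968 in replicates 1 and 2. At RpS2, a protein of the small ribosomal subunit, the counts were 24210, 23493 and 64312. Of the peaks named here, only that at CycB was lowest in replicate 3. These 5 were named after their values were seen, and no test was made of them.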
